A study of Mus musculus with 15 samples.

Results

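The genes described are splicing factors and heterogeneous nuclear ribonucleoproteins (hnRNPs) of the mouse: the SR proteins (Srsf), the small nuclear ribonucleoprotein (snRNP) proteins (Snrp), the hnRNPs (Hnrnp) and the SF3A and SF3B subunits of the U2 particle (Sf3). Members were chosen by gene symbol among probe sets annotated with exactly 1 symbol, which gave 102 probe sets for 44 genes of the 15964 genes on the arrays. For a gene with several probe sets, the one brightest on average across the 5 treatments stands for it. The 32 genes whose value reached 4 times the median of their chip type in at least 1 treatment are reported, out of 6337 such genes in the whole series. They are 7 of 9 Srsf, 6 of 9 Snrp, 13 of 18 Hnrnp and 6 of 8 Sf3 genes. The other 12 genes were too dim to describe. Just inside this limit lay Sf3a3, whose highest value was 4.77 chip medians, and Hnrnpl at 4.93, and just outside it lay Srsf4 at 3.82 and Hnrnpu at 3.79.

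Every value comes from a single T cell clone, A.E7, a CD4 line of the helper type from the mouse. The 5 treatments were mock stimulation, anti-TCR alone (an antibody against the T cell receptor, the arm titled anergic), anti-TCR with CSA (cyclosporin A, a blocker of the phosphatase calcineurin), anti-TCR with a protein kinase C inhibitor that is not named further (PKCi), and anti-TCR with rapamycin, PD98059 and SB203580 together (Combo), which block mTOR, the kinase MEK and the kinase p38. Every inhibitor arm also received the antibody, and no arm received an inhibitor alone. For each treatment the RNA of cells taken at 2, 4 and 6 h went into 1 pool, and this pool was read once on each of chip types A, B and C, which carry different probe sets. No difference below therefore has a replicate check or a test, and precision is limited by these single arrays.

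Most introns are removed by the spliceosome, which is built from snRNPs whose Sm proteins form a ring on the small nuclear RNA. SR proteins bind exons and recruit the spliceosome to nearby splice sites, whereas many hnRNPs bind silencers and oppose exon inclusion. In T cells the best known case is CD45 (Ptprc), whose variable exons are skipped after activation, and hnRNP L-like (Hnrnpll) is a regulator of that switch. These arrays measure the amount of each factor's transcript and not the splicing of its targets.

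The T cell identity of the material was checked with fixed markers. Of 9 T cell markers on the arrays 8 reached 4 chip medians, Cd3d, Cd3e, Cd3g and Cd4 among them, and Cd5 stayed at or below the chip median in all 5 treatments. The summed intensity of these 9 probe sets was 12112 with mock, 10568 with anti-TCR, 8014 with CSA, 7864 with PKCi and 10167 with Combo. Of 5 B cell markers 0 reached that level, and so did 0 of 3 CD8 T and NK cell markers, which were all at or below the chip median, 0 of 4 erythroid and neutrophil markers and 1 of 6 macrophage and dendritic cell markers (Cd14). The summed intensity ranged over the treatments from 227 to 296 for the B cell list, from 7.70 to 17.4 for the CD8 T and NK list, from 159 to 202 for the erythroid and neutrophil list and from 291 to 445 for the macrophage and dendritic list. The part of these differences between treatments in the results below was not tested. In such bulk RNA a lower value from fewer expressing cells and one from less RNA per cell cannot be told apart.

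A member is said to have risen or fallen in a comparison if the brighter of its 2 values reached 4 chip medians and was at least 2-fold above the dimmer, with values below the chip median raised to it. Between anti-TCR alone and mock, 6 of 32 measured members rose (18.8%), against 11.4% of all 5803 genes measured, and 1 fell (3.12%), against 13.9%. The members that rose were Hnrnpll, Srsf11, Srsf1, Srsf9, Srsf6 and Hnrnpab, and the one that fell was Snrpb. With CSA against anti-TCR alone, 0 of 30 measured members rose and 0 fell, against 4.84% and 5.34% of 5453 genes. With PKCi, 1 of 31 rose (Hnrnph3) and 2 fell (Hnrnpll and Srsf3), against 14.3% and 9.75% of 5793 genes. With Combo, 0 of 31 rose and 1 fell (Hnrnpll), against 7.95% and 5.46% of 5621 genes. All 3 inhibitor comparisons share the anti-TCR arrays as their reference.

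The members' median log2 ratio of anti-TCR to mock was 0.03, beside -0.08 for all genes measured. Relative to anti-TCR alone it was 0.09 with CSA, -0.17 with PKCi and -0.17 with Combo, beside 0.03, 0.03 and 0.02 for all genes. The same RNA pools were read by different probe sets on different chip types, and this is the closest thing to a repeat measurement in the series. Pairs of bright probe sets of a gene gave a technical SD of a single log2 ratio of 0.75 in the comparison with mock (1150 pairs), 0.48 in that of CSA (1095), 0.71 in that of PKCi (1191) and 0.55 in that of Combo (1143). A 2-fold difference is 1 on this scale, so a ratio close to the limit is not far above the technical SD. Across the 5 treatments the highest and lowest values of a member were at least 2-fold apart in 10 of 32 members (31.2%), against 44.1% of 6337 genes.

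**Figure D1:**
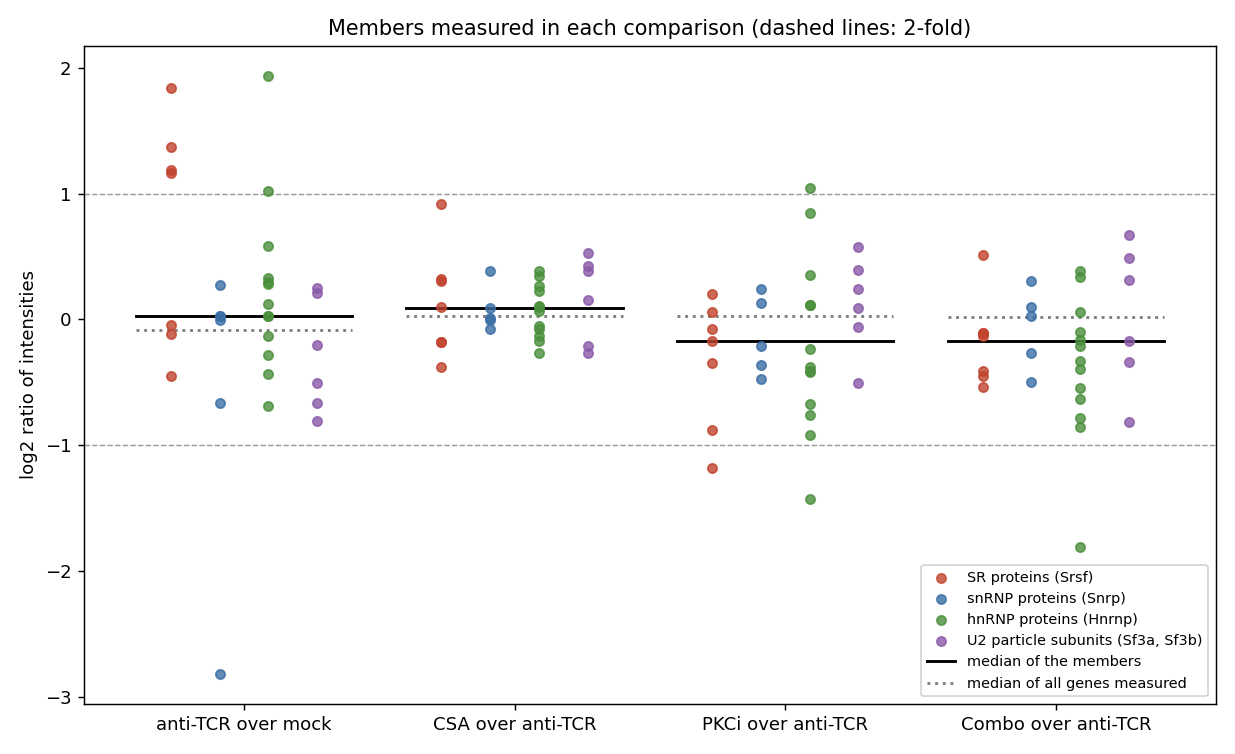
Log2 ratio of intensities (vertical axis) of every member measured in each of the 4 comparisons (horizontal axis), 1 point per gene, coloured by family; solid bars are the members' median, dotted bars the median of all genes measured, and dashed lines mark 2-fold. Points above the upper dashed line are mostly SR proteins in the anti-TCR comparison, and with CSA all 30 members lie inside the dashed lines.

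Among the hnRNPs, Hnrnpll and Hnrnpab rose with anti-TCR, and Hnrnpll fell against anti-TCR alone in the PKCi and Combo arms. Its brighter probe set, on chip type B, read 1513 with mock, 5785 with anti-TCR, 5284 with CSA, 2149 with PKCi and 1650 with Combo. The values with anti-TCR and CSA are high and the other 3 are low. A second bright probe set, on chip type A, read 1407, 4014, 2954, 1641 and 1438 in the same order and split the treatments in the same way.

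Anti-TCR thus raised Hnrnpll 3.82-fold on one probe set and 2.85-fold on the other. Relative to anti-TCR alone its transcript was 2.69-fold and 2.45-fold lower with PKCi, and 3.51-fold and 2.79-fold lower with Combo. With CSA the log2 ratio to anti-TCR alone was -0.13 and -0.44, neither of which passed the size rule. Expressed as a share of the log2 induction, CSA left 93.3% and 70.7%, PKCi left 26.2% and 14.7%, and Combo left 6.48% and 2.08%. The log2 ratios of the 2 probe sets differed by less than the technical SD in all 4 comparisons. The remaining probe set of the gene, on chip type C, stayed below its chip median in every treatment, so it gives no reading.

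Hnrnpab encodes an RNA and single-stranded DNA binding protein. It read 321 with mock, 651 with anti-TCR, 680 with CSA, 344 with PKCi and 378 with Combo. As for Hnrnpll, the anti-TCR and CSA values are high and the others low, but the rise is just past the limit (2.03-fold), and the falls with PKCi (1.89-fold) and Combo (1.72-fold) did not reach it. PKCi left 10.03% of its log2 induction and Combo left 23.0%. Neither of its other probe sets reached 4 chip medians.

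Hnrnph3, a member of the group that binds runs of guanines, read 205 with mock, 187 with anti-TCR, 200 with CSA, 385 with PKCi and 236 with Combo. Only the PKCi value stands apart (2.06-fold above anti-TCR alone), on the single bright probe set of this gene. Its relative Hnrnph1 moved little, with 1638, 2056, 1955, 1550 and 1634 in the same order of treatments.

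On the probe sets that stand for them, the other hnRNPs changed less than 2-fold in all 4 comparisons. Hnrnpm, a splicing regulator with one of the brightest probe sets of the family, read 2159 with mock, 2200 with anti-TCR, 2572 with CSA, 2384 with PKCi and 2294 with Combo on an f-suffixed probe set, a suffix that marks probes shared with other sequences. A second probe set of Hnrnpm on chip type A gave a log2 ratio of 0.79 for anti-TCR over mock, against 0.03 on the brighter one. The 10 uncalled hnRNP genes, Hnrnpk and Hnrnpdl included, had log2 ratios between -0.68 and 0.58 for anti-TCR over mock, between -0.27 and 0.38 for CSA, between -0.76 and 0.85 for PKCi and between -0.86 and 0.38 for Combo on these probe sets. Some second probe sets lay outside these ranges, that of Hnrnpm among them (0.79 for anti-TCR over mock and -0.55 for CSA). The second probe set of Hnrnpr, on chip type C, read 288 with mock, 101 with anti-TCR, 157 with CSA, 184 with PKCi and 162 with Combo. That is a 2.85-fold fall with anti-TCR (log2 ratio -1.51), which passes the size rule, whereas the brighter chip type A probe set gave -0.43.

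Hnrnpa2b1, which is known for both splicing and RNA transport, was level with mock, anti-TCR and CSA (2133, 2170 and 2094) and lower with PKCi and Combo (1285 and 1199), by 1.69-fold and 1.81-fold against anti-TCR alone. Its much dimmer second probe set had the opposite sign with Combo (log2 ratio 0.34) and did not reach 4 chip medians in either value of the PKCi comparison. Hnrnpd (AUF1), a regulator of the stability of AU-rich mRNAs, read 1169, 1434, 1818, 899 and 984 from mock to Combo. Its CSA and PKCi values lay 2.02-fold apart, while none of the 4 comparisons passed. Over the family, 10 of 13 hnRNP genes had a log2 ratio below 0 with Combo and 8 of 13 with PKCi, against 2734 of 5621 and 2805 of 5793 among all genes.

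**Figure D2:**
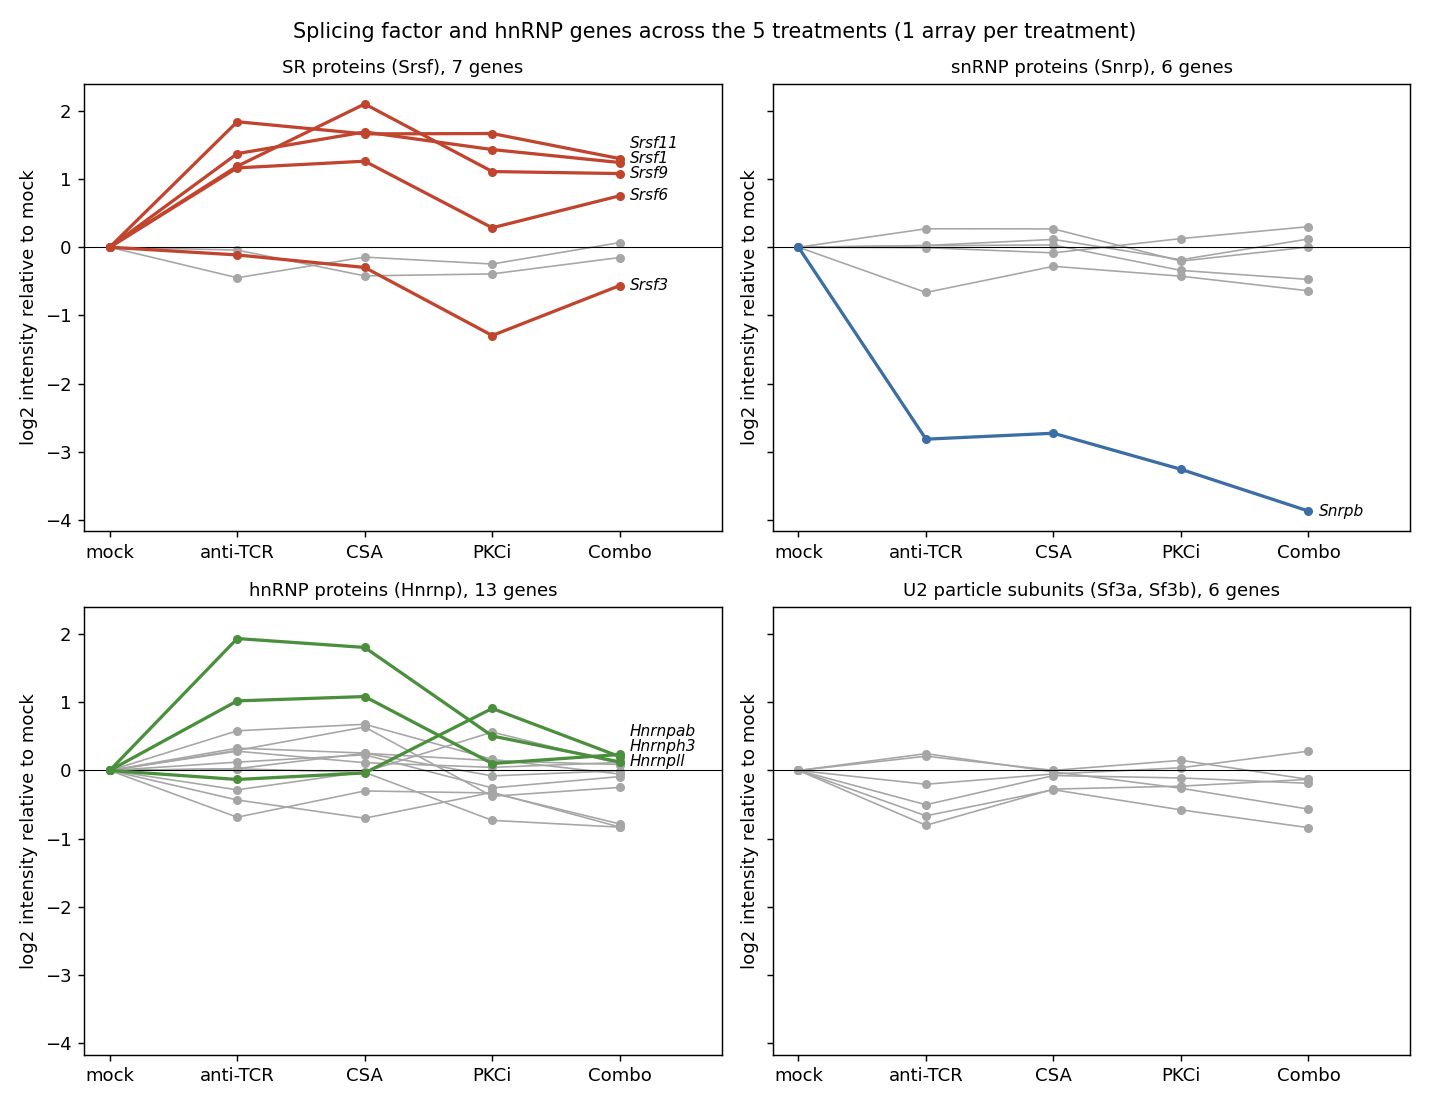
Log2 intensity relative to mock (vertical axis) of the 32 members in the 5 treatments (horizontal axis), 1 line per gene and 1 panel per family; lines only join the values of a gene, coloured lines are genes that passed the size rule in at least 1 comparison, and values below the chip median were raised to it. Hnrnpll is high with anti-TCR and CSA and near its mock level with Combo, whereas Srsf1, Srsf9 and Srsf11 stay above mock in all 4 stimulated arms.

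Of the 7 SR protein genes measured, 4 rose with anti-TCR and 0 fell, against 11.4% and 13.9% of all genes. The median log2 ratio was 1.16, which is the value of Srsf6. When the probe sets of each gene were averaged, Srsf11 (0.86) and Srsf6 (0.47) no longer reached 2-fold. Srsf1, the founding SR protein that activates exons through purine-rich enhancers, read 155 with mock, 401 with anti-TCR, 500 with CSA, 418 with PKCi and 367 with Combo on chip type B. All 4 stimulated arms are high and only mock is low. A second bright probe set on chip type A read 77.4, 293, 524, 230 and 224 in the same order, so anti-TCR raised the transcript 2.59-fold and 3.78-fold on the 2 probe sets.

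No inhibitor moved Srsf1 past the size rule. Its log2 ratio to anti-TCR alone was 0.32 and 0.84 with CSA, 0.06 and -0.35 with PKCi, and -0.13 and -0.39 with Combo. The log2 induction left with PKCi was 104% and 81.9%, and with Combo it was 90.5% and 79.8%. A dimmer probe set on chip type A, at most 2.84 chip medians, had the opposite sign (135 with mock and 74.0 with anti-TCR).

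Srsf9 (SRp30c) can antagonise or assist other SR proteins depending on the exon. It read 456 with mock, 1039 with anti-TCR, 1957 with CSA, 985 with PKCi and 965 with Combo. It rose 2.28-fold with anti-TCR, was 1.88-fold higher again with CSA, and kept 93.5% and 91.0% of its log2 induction with PKCi and Combo. The arrays hold no other probe set annotated to this gene alone, so its pattern has no second reading.

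For Srsf11 and Srsf6 the result depends on the probe set. Srsf11 encodes an arginine- and serine-rich protein related to the classical SR proteins. On the chip type B probe set that stands for the gene it read 659 with mock, 2359 with anti-TCR, 2085 with CSA, 2092 with PKCi and 1622 with Combo, a rise of 3.58-fold with anti-TCR. A chip type C probe set read 48.4, 300, 372, 337 and 282 in the same order, an anti-TCR value at least 5.46-fold above mock.

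The further bright probe sets of Srsf11 did not show this rise. On chip type A the gene read 1704 with mock and 1290 with anti-TCR. A second chip type B probe set gave a log2 ratio of 0.33, and a second one on chip type C gave 0.16. An r-suffixed probe set on chip type C was too dim in this comparison, at 85.9 and 150. The second chip type C probe set, at 261, 291, 318, 222 and 107 from mock to Combo, fell 2.72-fold with Combo against anti-TCR alone, while the 4 other probe sets measured there gave log2 ratios between -0.73 and -0.09. Which transcripts the separate probe sets bind was not tested.

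Srsf6 (SRp55) binds exonic enhancers as Srsf1 does. It read 1027 with mock, 2302 with anti-TCR, 2463 with CSA, 1252 with PKCi and 1733 with Combo on chip type A, a rise of 2.24-fold with anti-TCR and a log2 ratio of -0.88 with PKCi. On chip type B, 1 plain and 1 f-suffixed probe set gave 0.29 and -0.03 for anti-TCR over mock, and 0.61 and 0.43 for PKCi over anti-TCR alone. The signs with PKCi are therefore opposite on the 2 chip types.

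Srsf3 (SRp20), which also acts in mRNA export, read 472 with mock, 437 with anti-TCR, 384 with CSA, 192 with PKCi and 320 with Combo. The PKCi value is the low one (2.27-fold below anti-TCR alone), on an f-suffixed probe set, and its 3 other probe sets were too dim to compare. Srsf2 (SC35), long used as a marker of nuclear speckles, read 3590, 3488, 2683, 2738 and 3234 from mock to Combo on an s-suffixed probe set. Its second s-suffixed probe set read 814, 1595, 1742, 582 and 1410. That is a log2 ratio of 0.97 for anti-TCR over mock and of -1.46 for PKCi over anti-TCR alone. The brighter probe set gave -0.04 and -0.35 for these ratios, and its lowest value was that with CSA, so it did not show either change at this size. Srsf5 (SRp40) stayed within 1.43-fold over the 5 treatments, with 1350, 990, 1221, 1138 and 1415.

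**Figure D3:**
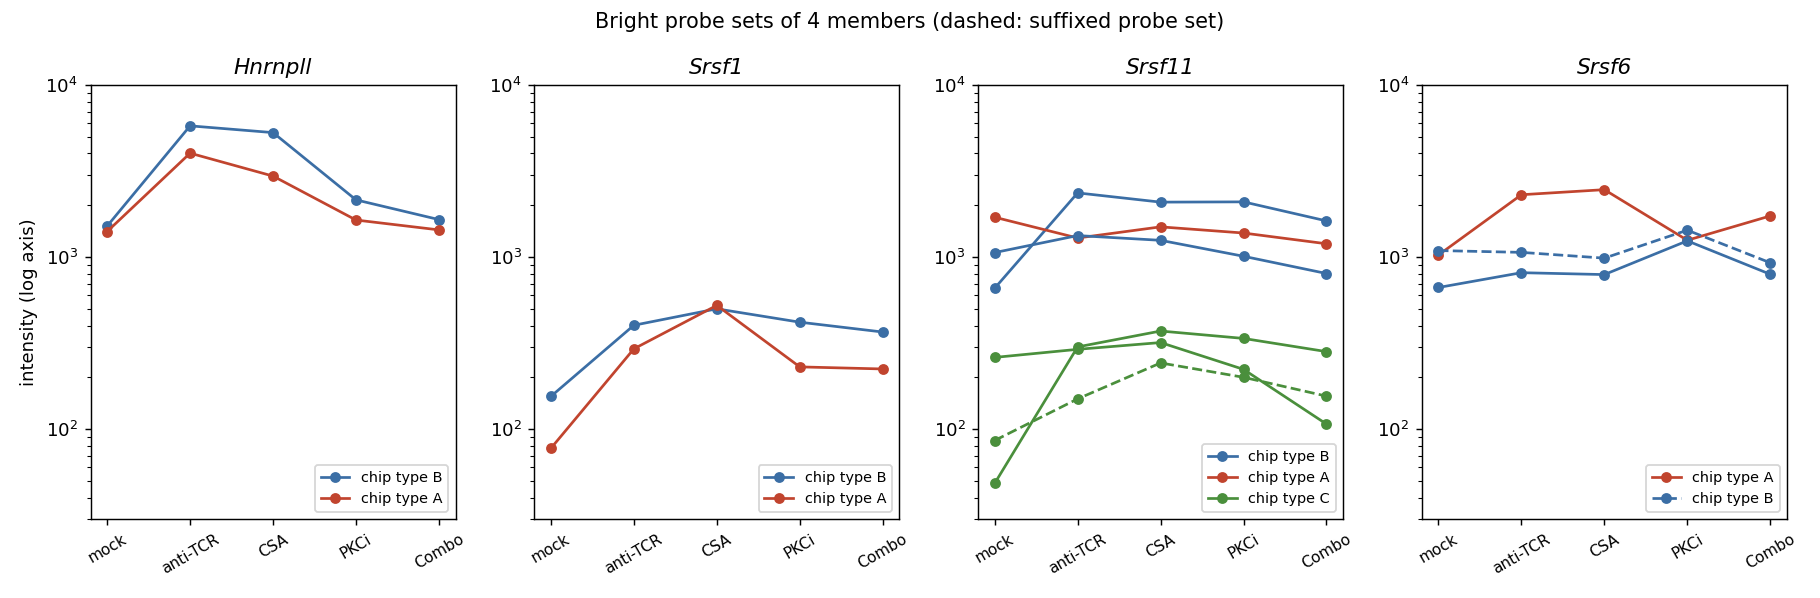
Intensity on a log axis of every probe set at 4 chip medians or more for Hnrnpll, Srsf1, Srsf11 and Srsf6 (panels) in the 5 treatments (horizontal axis), coloured by chip type; lines only join the values of a probe set and dashed lines are suffixed probe sets. Hnrnpll is high with anti-TCR and CSA on both chip types and Srsf1 is lowest with mock on both, while 2 of 6 Srsf11 probe sets and 1 of 3 Srsf6 probe sets show the 2-fold rise with anti-TCR.

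Of the 6 snRNP protein genes measured, 0 rose with anti-TCR and 1 fell, against 11.4% and 13.9% of all genes. Snrpb encodes SmB, a subunit of the Sm ring. It read 746 with mock, 106 with anti-TCR, 113 with CSA, 78.1 with PKCi and 39.5 with Combo. Only mock was bright, and the gene entered the reported set through that value alone. The 7.04-fold fall rests on an r-suffixed probe set, a suffix that marks a broken probe selection rule, and a dimmer i-suffixed probe set of Snrpb read 50.8 with mock and 124 with anti-TCR, the opposite order.

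The other 5 snRNP genes stayed within 2-fold over the 5 treatments on the probe sets that stand for them. So did 3540 of the 6337 genes of the whole series that reached 4 chip medians. Snrpf, a subunit of the Sm ring, read 1151 with mock, 1389 with anti-TCR, 1387 with CSA, 1000 with PKCi and 1154 with Combo. Snrpg, another subunit of the ring, read 1526, 964, 1257, 1137 and 980, with mock the highest. Over Snrpc, Snrpd3, Snrpe, Snrpf and Snrpg the log2 ratios lay between -0.66 and 0.27 for anti-TCR over mock, between -0.08 and 0.38 for CSA, between -0.47 and 0.24 for PKCi and between -0.50 and 0.31 for Combo. Snrpc, which helps the U1 particle read the 5′ splice site, was level on 2 of its 3 bright probe sets, while an r-suffixed one on chip type C read 67.3 with mock and 383 with anti-TCR.

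The subunits of SF3A and SF3B anchor the U2 particle at the branch point. On the probe sets that stand for them, all 6 stayed within 2-fold over the 5 treatments, as did 3540 of 6337 genes. Dimmer suffixed probe sets spread further, 2.55-fold for 1 of Sf3a2, with mock the highest, and 2.06-fold and 2.18-fold for 2 of Sf3b2, though none passed the size rule in a comparison. Sf3a2 read 1856 with mock, 2145 with anti-TCR, 1858 with CSA, 2058 with PKCi and 1695 with Combo, on an f-suffixed probe set. Sf3b6, the small subunit that touches the branch point adenosine, read 885, 558, 728, 593 and 495, with mock the highest. Sf3b1, the largest subunit of SF3B, read 618, 354, 511, 527 and 564 on one probe set and 492, 291, 335, 388 and 300 on another.

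Both probe sets of Sf3b1 were lowest with anti-TCR alone, though on the second Combo read nearly as low (300 against 291). The log2 ratios of anti-TCR to mock were -0.80 and -0.76, short of the size rule. The 3 bright probe sets of Sf3b2 gave ratios between -0.66 and -0.42 for the same comparison. Over the 6 genes the median log2 ratio of anti-TCR to mock was -0.35, beside -0.08 for all genes measured. Relative to anti-TCR alone the medians were 0.27 with CSA, 0.16 with PKCi and 0.07 with Combo, beside 0.03, 0.03 and 0.02. These 3 medians share the anti-TCR arrays as their denominator, on which 4 of the 6 genes read below mock.

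Readings of a member by more than 1 bright probe set had the same sign throughout in 7 of 13 members for anti-TCR over mock, in 4 of 10 for CSA, in 4 of 9 for PKCi and in 6 of 10 for Combo. Among all genes these shares were 65.6%, 60.7%, 65.9% and 60.4%. Hnrnpll and Sf3b1 were the only members whose bright probe sets had the same sign in all 4 comparisons.

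Other splicing genes outside these families were followed with a list of 140 genes found on the arrays. With anti-TCR, 14 of 99 measured rose (14.1%) and 6 fell (6.06%), at a median log2 ratio of -0.12, against 11.4% and 13.9% of all genes. With CSA 2 of 97 rose and 0 fell (median -0.03), with PKCi 7 of 101 rose and 4 fell (median 0.07), and with Combo 4 of 93 rose and 4 fell (median -0.01). The shares of all genes that rose and fell were 4.84% and 5.34% with CSA, 14.3% and 9.75% with PKCi, and 7.95% and 5.46% with Combo.

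The largest rise of the list with anti-TCR was that of Sfpq, a DNA and RNA binding protein of nuclear paraspeckles that is also a regulator of CD45 splicing in T cells. Sfpq read 88.1 with mock, 515 with anti-TCR, 476 with CSA, 203 with PKCi and 225 with Combo on an s-suffixed probe set, and 70.6, 228, 213, 48.7 and 99.4 on an f-suffixed one. The anti-TCR and CSA values are high on both, and the PKCi and Combo values lower, as for Hnrnpll.

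Pspc1, a paraspeckle partner of Sfpq, fell most of the list with PKCi and with Combo. It read 121 with mock, 676 with anti-TCR, 518 with CSA, 120 with PKCi and 179 with Combo on its single bright probe set, a log2 ratio of 2.49 with anti-TCR, -2.49 with PKCi and -1.92 with Combo. In the other direction Rsrc1, an SR-related protein, read 348 with mock and 90.2 with anti-TCR on an i-suffixed probe set (log2 ratio -1.95).

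Luc7l, a U1-associated protein, was highest of the list with PKCi, at 953 against 328 with anti-TCR alone (log2 ratio 1.54), while its second probe set gave 0.29. Lsm7, of the U6 particle, had the highest ratio with Combo, at 240 against 65.5 with anti-TCR alone (log2 ratio 1.87). It read 231.5 with mock, 200 with CSA and 141 with PKCi, so the anti-TCR value is the low one and Combo is near mock. With CSA the ends of the list were Sart1, a recruiter of the U4/U6.U5 particle (log2 ratio 1.23), and Raly, an hnRNP relative (-0.82).

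Of the kinases that phosphorylate SR proteins, 1 of 7 measured fell with anti-TCR and 0 rose, against 13.9% and 11.4% of all genes. The one that fell was Dyrk1a, which also rose with PKCi against anti-TCR alone, as 1 of 7, against 14.3% of all genes. With anti-TCR 6 of the 7 had a log2 ratio below 0 (median -0.51), beside 3163 of 5803 among all genes, and 6 of the 7 did not pass the size rule. Relative to anti-TCR alone, 5 of 6 had a ratio above 0 with CSA (median 0.31), 7 of 7 with PKCi (median 0.69) and 4 of 5 with Combo (median 0.38). Among all genes these counts were 2832 of 5453, 2987 of 5793 and 2882 of 5621. The 3 kinase counts share the anti-TCR arrays, on which the kinases read low, as their denominator. Clk1, a kinase of SR proteins, read 1566 with mock, 786 with anti-TCR, 764 with CSA, 1261 with PKCi and 1021 with Combo, and its log2 ratio of -0.99 for anti-TCR over mock was just short of the rule. Clk4 had a log2 ratio of -0.51 for anti-TCR over mock. Relative to anti-TCR alone its ratio was 0.55 with CSA and 0.60 with PKCi, and it was too dim to compare with Combo.

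Of the factors that read the 3′ splice site, U2af1 read 210, 379, 317, 177 and 477 from mock to Combo and fell with PKCi (log2 ratio -1.10), whereas its partner U2af2 did not pass in any comparison (2716, 2567, 1693, 1684 and 2336). Tra2b, an SR-like activator of exons, was level between mock and anti-TCR (754 and 764) and read 455 with PKCi (log2 ratio -0.75).

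**Figure D4:**
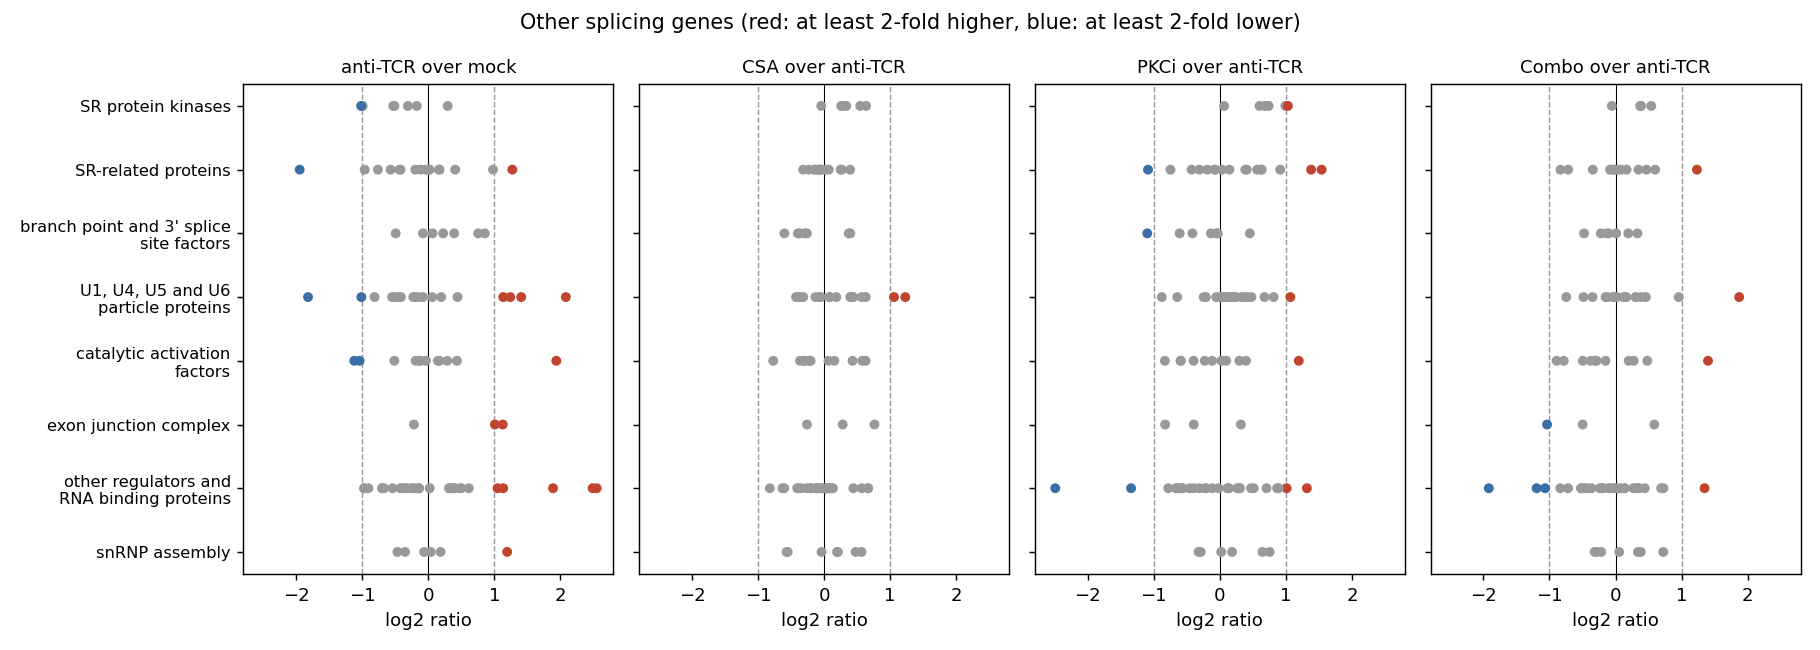
Log2 ratio (horizontal axis) of the other splicing genes measured in each of the 4 comparisons (panels), 1 point per gene in 8 groups (rows); red points are at least 2-fold higher, blue points at least 2-fold lower, and dashed lines mark 2-fold. The points furthest to the right in the anti-TCR panel and furthest to the left in the PKCi and Combo panels belong to the regulators and RNA binding proteins, Sfpq and Pspc1 among them.

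Promoter sequences from the RefSeq table (GRCm38.p6, 250 bases before to 50 after a gene start) were found for 28 of the 32 members. They were searched on both strands for CACGTG, the E-box bound by Myc, for TGACGTCA, the cAMP response element, and for CCGGAAG, a motif bound by ETS factors; none of these motifs contains another. CCGGAAG was in a promoter of 10 of 28 members (35.7%), against 21.4% of 5172 genes of the table that reached 4 chip medians and 9.93% of all 27025 genes of the table. As a share of single promoters it was in 8.86% of 32851. CACGTG was in 2 of 28 (7.14%), against 12.1% and 8.09%, and TGACGTCA in 1 of 28 (3.57%), against 3.50% and 2.03%. A match describes these letters only and is not evidence of binding.

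The 10 members with CCGGAAG are shown because this was the most frequent of the 3 motifs, and 7 of them are Sf3 or Snrp genes. On the probe sets that stand for them these 7 passed the size rule in 0 comparisons, as did 23 of the 32 members with or without the motif. Each line is 27 bases, 5′ to 3′ on the named strand, with the motif in capitals, and where a gene holds several matches the one nearest to a gene start is given.
Hnrnpd, chr5:99979100-99979126, plus strand: ttaaagaggaCCGGAAGtggcgtgcgc
Sf3a2, chr10:80798649-80798675, plus strand: gcctttgctcCCGGAAGggatcgcttc
Sf3a3, chr4:124714761-124714787, minus strand: tccgcgtgtcCCGGAAGtgtcttgggg
Sf3b2, chr19:5295452-5295478, minus strand: gattacgcaaCCGGAAGtttctggaag
Sf3b6, chr12:4817528-4817554, plus strand: ggtccgcaatCCGGAAGcgttctggag
Snrpc, chr17:27840038-27840064, plus strand: agggcagaggCCGGAAGcggaagtcct
Snrpe, chr1:133610261-133610287, plus strand: aaagcgacttCCGGAAGcaagacccgg
Snrpg, chr6:86371385-86371411, plus strand: ggcgacgcaaCCGGAAGcgtggctctg
Srsf5, chr12:80945466-80945492, plus strand: tggcaccgccCCGGAAGtgacgccagg
Srsf11, chr3:158031774-158031800, plus strand: cgcccatatcCCGGAAGtacgcgtcca

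Of the members that rose with anti-TCR, Srsf11 alone among the 5 with a promoter in the table held one of the 3 motifs. That motif, CCGGAAG, was in a promoter of 21.4% of the 5172 bright genes of the table and of 10 of 28 members. So small a count does not set the members that rose apart. The other listed start of Srsf11 is shown beside the promoter of Srsf1, which also rose on 2 chip types. Srsf1 holds none of the 3 motifs, and capitals mark CCGGAAG.
Srsf11, chr3:158036557-158036856, minus strand: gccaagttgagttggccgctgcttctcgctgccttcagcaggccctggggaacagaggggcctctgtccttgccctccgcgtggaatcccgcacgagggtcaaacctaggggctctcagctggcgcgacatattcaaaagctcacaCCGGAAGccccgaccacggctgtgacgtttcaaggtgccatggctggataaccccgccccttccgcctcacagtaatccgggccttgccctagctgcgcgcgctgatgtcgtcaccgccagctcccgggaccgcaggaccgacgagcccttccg
Srsf1, chr11:88047123-88047422, plus strand: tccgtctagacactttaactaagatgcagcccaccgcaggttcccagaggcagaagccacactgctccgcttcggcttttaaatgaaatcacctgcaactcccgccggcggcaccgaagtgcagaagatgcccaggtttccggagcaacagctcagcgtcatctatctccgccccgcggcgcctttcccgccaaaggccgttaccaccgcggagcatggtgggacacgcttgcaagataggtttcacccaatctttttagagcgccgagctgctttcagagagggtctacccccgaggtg
The motif begins 104 bases before the start of Srsf11.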

How the data were processed

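The deposited intensity values are on a linear scale with no negative value. Within a chip type the arrays' 2% trimmed means agree to 0.242% or better, which shows scaling by the authors to a common level; nothing was added to it here. The software and the scaling target are not given in the sources used here. The medians of the chip types lay between 51.1 and 69.5, and the share of probe sets at 4 chip medians or more was 17.4% to 23.0% per array. Of 36701 probe sets 29131 carry 1 symbol, 724 several and 6846 none; 29044 matched a current gene table by identifier, which changed 0 symbols.

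Computation used Python 3.11.15 with pandas 2.3.3 and numpy 2.4.6. The chip median is that of all values of a chip type and served as the floor before log2 was taken. The technical SD was computed from pairs of measured probe sets that read the same gene on 2 chip types: their log2 ratios were subtracted, and the root mean square of these differences was divided by √2. A gene can give several pairs. The scripts were tested on simulated data with planted changes. These were larger than the 2-fold limit, in brighter genes and with less noise than the technical SD found here. That checks the code and says nothing about calls near the limit. No test was possible with 1 array per treatment and chip type. Values in all treatments are given for members that passed the size rule and for the 2 with the highest mean of each family; of the other splicing list, the ends of each comparison and a few preset genes are named. Hnrnpd, Hnrnpa2b1, Hnrnph1, Hnrnpr, Srsf5, Sf3b1, Sf3b2, Snrpc, Dyrk1a and Ptprc were added after their values were seen. The members and lists were chosen with earlier results of these data known. Alternatives covered scaling, floor, minimum level, probe set and fold.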

Additional observations from a re-analysis of the deposited data

How the results depend on the processing

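Counts and medians of the members were recomputed under 9 alternatives. No paired analysis was possible because each treatment was read on a single array of each chip type. Of 104 recomputed values 92 stayed near the reported ones. Quantile normalization gave 1 member higher with CSA (reported 0) and turned the median with PKCi to 0.030 (reported -0.17). With 8 chip medians as minimum 0 rose with PKCi (reported 1), since Hnrnph3 is dimmer, and 5 rose with anti-TCR (reported 6), without Srsf1. With the minimum set on the mean over treatments 2 fell with Combo (reported 1). Without suffixed probe sets 0 fell with anti-TCR (reported 1) and 1 with PKCi (reported 2), because Snrpb and Srsf3 were read on such probe sets. At 1.5-fold, 5 fell with anti-TCR, 1 rose with CSA, 2 rose and 6 fell with PKCi, and 1 rose and 5 fell with Combo. Averaging the probe sets of each gene left 4 that rose with anti-TCR, with Srsf11 (log2 ratio 0.86) and Srsf6 (0.47) below 2-fold. Among all genes, 8 chip medians as minimum tested fewer genes and so lowered the counts of rises and falls, with CSA from 264 and 291 of 5453 to 138 and 193 of 2935, with PKCi from 827 and 565 of 5793 to 467 and 371 of 3232, and with Combo from 447 and 307 of 5621 to 228 and 197 of 3037. With anti-TCR the falls went from 808 of 5803 to 468 of 3184. At 1.5-fold the rises and falls over the 4 comparisons numbered between 645 and 1484. Another floor changed 0 calls, since a call needs 4 chip medians. The calls of Hnrnpll held in all 8 alternatives that kept the 2-fold limit. Hnrnph3 (0.92 under quantile normalization) was moved below 2-fold by that scaling.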

Other observations

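Probe sets annotated with several symbols were outside the rule. Of 9 that include a matching symbol, 4 reached 4 chip medians. The one shared by Hnrnpa3 and Gm6793 read 1710 with mock, 2303 with anti-TCR, 2540 with CSA, 1252 with PKCi and 1294 with Combo. The one shared by Hnrnpa1, Gm10052 and Gm5643 read 314, 333, 346, 197 and 231 in the same order, the one shared by Snrpd2 and Gm5848 read 719, 720, 729, 568 and 1057, and the one shared by Snrpa, Gm21559 and Gm5161 read 172, 301, 274, 332 and 301. For both hnRNP probe sets the PKCi and Combo values were the lowest.

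Ptprc, which encodes CD45, was looked up after the values of Hnrnpll were seen. Its brightest probe set read 1548 with mock, 1488 with anti-TCR, 658 with CSA, 836 with PKCi and 1324 with Combo, a fall of 2.26-fold with CSA against anti-TCR alone. A dimmer g-suffixed probe set read 194, 260, 138, 125 and 199 in the same order, 1.88-fold lower with CSA. The log2 ratio of anti-TCR to mock was -0.06 on the first and 0.42 on the second. These values do not show which of its exons were included.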
